A study of Mus musculus with 5 samples.

Results

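Hepatocytes sorted as positive for a fluorescent reporter of fatty acid oxidation (FAO), given to the animals as a chemical probe, were compared between mice given bezafibrate and control mice. The comparison was chosen by its label alone: the bezafibrate positive library was set against the control positive library, 2 of the 5 libraries of the study. Genes were taken in when their mean over all 5 libraries reached a normalised read count of 5, which 8981 of 13966 genes did. Each value is a deposited normalised read count, and each difference is bezafibrate positive minus control positive on the log2(value + 1) scale, which understates the change of low genes. The study sorted liver cells of probe-treated mice to describe how hepatocytes of different FAO activity differ in their RNA. All libraries are of the outbred ICR stock and are labelled as hepatocytes. Control mice gave a negative and a positive gate. Mice given bezafibrate gave a negative, a positive and a high gate. The sources used here do not give the number of mice behind a library, their age and sex, the dose, the route and length of treatment, the hour of sampling, the gate limits or whether gates of a treatment share a liver. Each group has 1 library, so differences carry no p-value and no check against replicates, and treatment cannot be told apart from mouse, sort and library.

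Bezafibrate is a fibrate, a drug that activates peroxisome proliferator-activated receptors (PPARs). PPARα, the form that hepatocytes express most, binds DNA as a pair with a retinoid X receptor at direct repeats of AGGTCA with 1 base between them, and fatty acids are among its natural ligands. In rodent liver its activation is known to raise enzymes of peroxisomal β-oxidation, of microsomal ω-oxidation and of mitochondrial β-oxidation.

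The promoters of the fatty acid genes are shown first. The choice of libraries did not use a match to this repeat. The lists include known PPARα targets, however, whose promoters may hold a match whatever these libraries show. The RefSeq promoter table (GRCm38.p6) held 18 of the 30 fatty acid genes of the lists below that were at least 2-fold different. A window of 250 bases before the start was searched on both strands for AGGTCANAGGTCA with at most 2 mismatches. A match stood in 5 of the 18, namely Adh4, Cd36, Echs1, Etfa and Fabp1. Ehhadh, Retsat, Pecr and Acadl were searched and held none. Genes without a promoter entry included Cyp4a10, Cyp4a12a, Cyp4a12b, Cyp4a14 and Cyp4a31. Members of the lists under 2-fold were not searched, so whether called members hold more matches than they do was not tested. Of all 32851 promoters 3.24% hold a match, or 3.72% of the 27025 genes. A match is a run of letters and not a binding site, and the absence of one in this window says nothing about the receptor. Stretches around the matches of 3 of these genes follow, 5′ to 3′ on the gene's strand, with the match in capitals.
Fabp1, chr6:71199762-71199826, plus strand: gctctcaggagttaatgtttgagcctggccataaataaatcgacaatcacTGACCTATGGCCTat
Echs1, chr7:140116477-140116554, minus strand: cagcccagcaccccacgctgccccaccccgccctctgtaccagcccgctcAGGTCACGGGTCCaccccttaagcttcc
Etfa, chr9:55512258-55512370, minus strand: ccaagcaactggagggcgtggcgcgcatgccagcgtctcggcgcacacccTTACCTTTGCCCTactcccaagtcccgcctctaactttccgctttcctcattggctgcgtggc
The match of Fabp1, the liver fatty acid binding protein, has 1 mismatch and lies 67 to 55 bases before the start. The matches of Echs1, the short-chain enoyl-CoA hydratase of mitochondria, and of Etfa, a subunit of the electron carrier of acyl-CoA dehydrogenases, have 2 mismatches each.

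The libraries differed in depth and in RNA make-up. Recovered depth was 5056884 reads in control positive and 5993366 in bezafibrate positive, and lay between 5454866 and 7146578 in the other 3. Rn45s, the precursor of ribosomal RNA, held 34.8% of reads in control positive and 18.5% in bezafibrate positive. Short transcripts stood higher than long ones. From the fifth of genes with the shortest to the fifth with the longest annotated transcripts, the median difference went from 0.25 through 0.042, -0.012 and -0.049 to -0.095, and the share of genes at least 2-fold higher from 9.93% to 1.85%. Several groups below have short annotated transcripts, such as complex I with a median of 1046 bases. The part of transcript length and of RNA make-up in those results was not tested. Hepatocyte markers were abundant in every library, and 10 of them summed to 47182, 45949, 107126, 76669.8 and 84319 in the 5 libraries, listed as control negative, then control positive, then the negative, positive and high gates of bezafibrate, an order kept wherever 5 values are given. Where 1 value stands against another, bezafibrate positive comes first and control positive second. Markers of Kupffer cells summed to between 4.6 and 9.1, those of sinusoidal endothelium to between 21.9 and 37.0, and 0 genes of the T and NK and of the B cell lists had a row in the table. Stellate cell markers summed to 104, 114, 34.8, 31.7 and 43.2. Most of each sum was Reln at 93.4, 106, 29.5, 28.5 and 29.8, and without Reln the sums were 10.9, 7.76, 5.33, 3.15 and 13.3, highest in bezafibrate high.

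The median difference over the 8981 genes was 0.0041, with quartiles at -0.33 and 0.39. At least 2-fold higher in bezafibrate positive were 446 genes (4.97%), and at least 2-fold lower were 261 (2.91%), together 7.87% of all genes. The exact 95% Clopper-Pearson interval of the fold, which covers counting error only, lay wholly past 2-fold for 198 of the higher and 107 of the lower genes. At least 4-fold apart were 39 higher and 26 lower genes, and at least 8-fold apart were 9 and 5. The split depends on scaling: with column totals set equal it became 815 higher and 134 lower, and with totals set equal outside Rn45s 339 and 366, while the median of all genes shifted by 0.20 and by -0.11. Among the 1156 genes whose mean over both libraries reached 100, 94 were higher and 47 lower. All 3 bezafibrate libraries stood above both controls for 438 of the 446 and below both for 253 of the 261, against 35.7% and 33.8% of all genes, though the genes were picked on a pair of these libraries. Counts in the gene groups below stand against 4.97% of all genes higher and 2.91% lower, and several small counts lie near these shares. The groups share members, so a gene can be counted in more than 1 of them. Members of gene groups named below beyond the 2 most abundant and the 2 most extreme were picked after their values were seen.

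**Figure D1:**
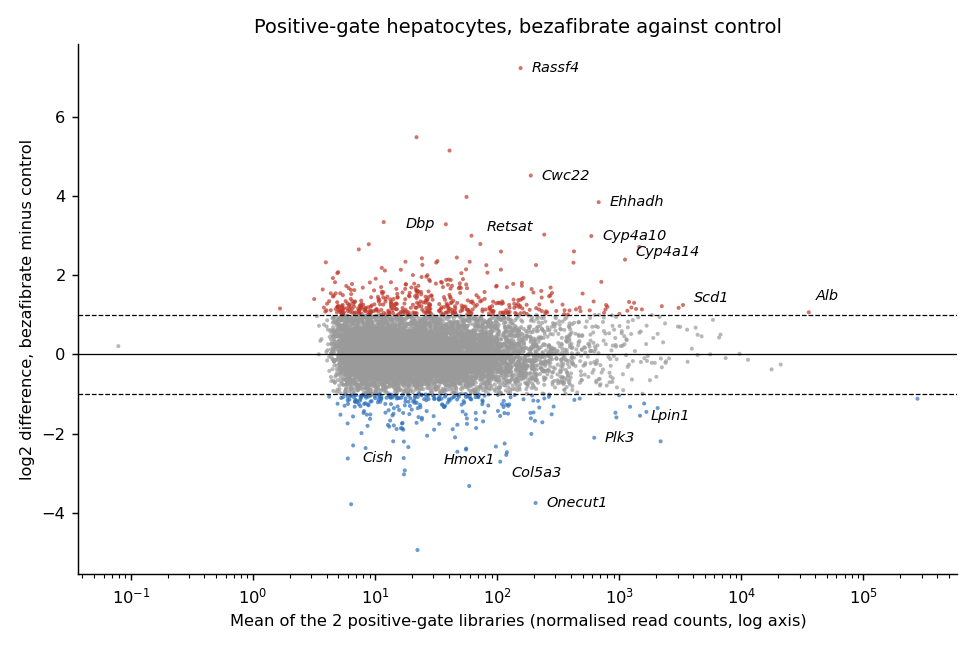
Log2 difference of each of the 8981 genes (vertical axis, bezafibrate positive minus control positive, log2(value + 1)) against its mean normalised read count in both libraries (horizontal axis, log scale). The 446 genes at least 2-fold higher and the 261 at least 2-fold lower are coloured, and they lie at all levels of abundance.

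Genes of ω-oxidation were among those with the highest differences. These enzymes hydroxylate the far end of a fatty acid in the endoplasmic reticulum and oxidise it on to a dicarboxylic acid. Of 15 genes analysed, 8 were at least 2-fold higher and 1 was lower, with a median of 1.05. Cyp4a10, a fatty acid ω-hydroxylase, had 117, 131, 1584, 1048 and 1160.1 in the 5 libraries, a fold of 7.98 (7.35 to 8.69), where a fold is the plain ratio of bezafibrate positive to control positive with its counting interval in brackets. Cyp4a14, its close relative and the most abundant member, had 318, 355, 2366, 1873 and 1986, a fold of 5.27 (5.003 to 5.55). In both genes all bezafibrate libraries stood well above both control libraries, and the positive gate was the lowest of the 3 bezafibrate gates. Cyp4a12b had 8.62, 12.9, 146, 110.2 and 116 and Cyp4a12a 184, 202, 644, 484 and 504; the pair are near-identical copies, and reads could be split between them by the authors' counting. The Cyp4a genes together summed to 777 in control positive and 3691 in bezafibrate positive. Adh4, an alcohol dehydrogenase that also takes ω-hydroxy fatty acids, stood at 51.1 against 24.1. The member on the other side was Cyp4f17, a low gene at 22.2 against 46.1. The group took 0.200% (0.195 to 0.205) of reads outside Rn45s in control positive and 0.613% (0.606 to 0.620) in bezafibrate positive.

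Peroxisomal β-oxidation, which shortens very long and branched chains and passes electrons straight to oxygen, was past 2-fold in 2 genes. Ehhadh, the bifunctional hydratase and dehydrogenase of its middle steps (chromosome 16, 21761287 to 21787807 in GRCm38, the assembly also called mm10), had 72.9, 87.5, 1813, 1268 and 1535, a fold of 14.5 (13.1 to 16.04). The 2 control libraries lay close together and every bezafibrate library lay more than 10-fold above them. Pecr, an enoyl-CoA reductase of peroxisomes, had 28.3, 23.5, 87.8, 77.2 and 80.1 and a difference of 1.68. The list counted 2 higher and 0 lower of 25, with a median of 0.26. Its share of higher genes was 8%, near the 4.97% of all genes. Among 20 peroxins and other proteins of peroxisome assembly and content, Cat, the catalase that breaks down hydrogen peroxide, was the only one past 2-fold, at 1719 against 686. Pex11a, a peroxisome division factor often used as a PPARα target, stood at 20.02 against 20.9.

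In mitochondrial β-oxidation 8 of 19 genes passed 2-fold on the higher side and 0 on the lower, with a median of 0.87. The 8 were Acadl, Hadha, Hadhb, Echs1, Acaa2, Eci1, Decr1 and Etfa, which cover each step of the spiral from the dehydrogenase to the thiolase. Hadhb, the β subunit of the trifunctional protein, had 21.1, 20.7, 80.4, 60.5 and 70.4, a fold of 2.92 (2.33 to 3.70). Acaa2, the medium-chain thiolase, had 165, 161, 409, 342 and 442, a fold of 2.13 (1.96 to 2.32). Acadl, the long-chain dehydrogenase, had 38.8, 37.5, 138, 103 and 111. The 3 bezafibrate libraries stood above both controls in each of these genes. They did so in 35.7% of all genes and in 438 of the 446 higher genes, which were picked on a pair of these libraries. Acadvl, the very-long-chain dehydrogenase, was at 200.3 against 182, a difference of 0.13. The list took 0.166% (0.161 to 0.170) of reads outside Rn45s in control positive and 0.266% (0.261 to 0.270) in bezafibrate positive.

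**Figure D2:**
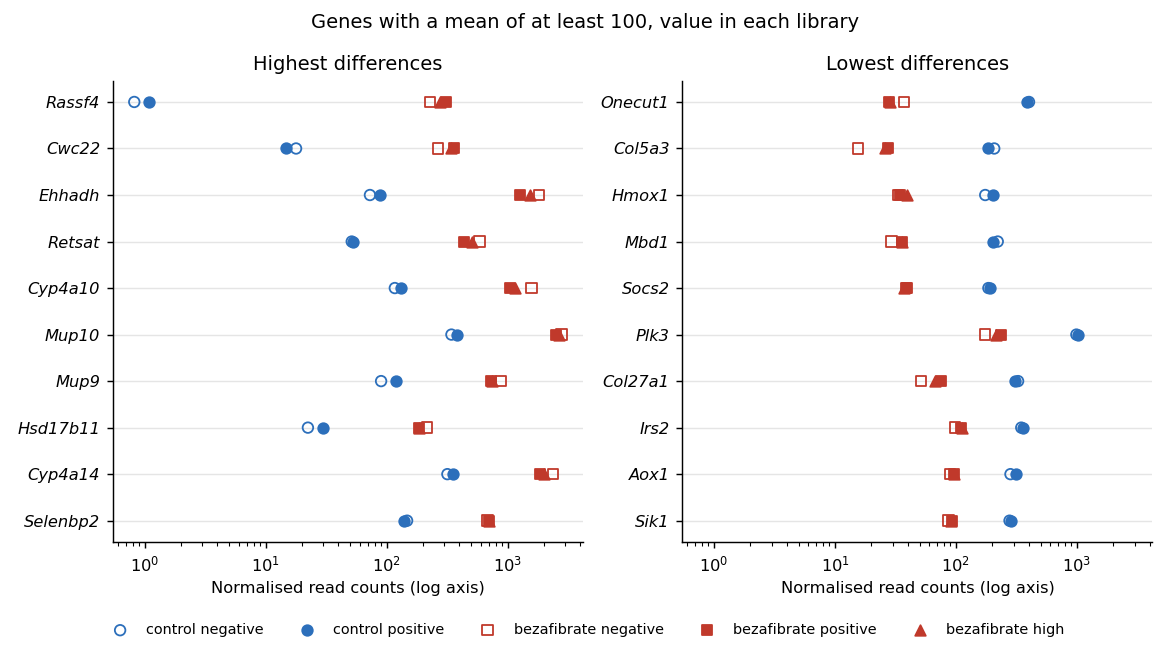
Normalised read count in each of the 5 libraries (horizontal axis, log scale, with genes down the side; 1 point per library, no error bars because each group has 1 library) for the 10 highest and 10 lowest genes whose mean over both positive libraries reached 100. Ehhadh, Retsat, Cyp4a10 and Cwc22 stand higher in all 3 bezafibrate libraries than in both controls, and Onecut1, Hmox1 and Socs2 stand lower.

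The carnitine shuttle carries long-chain fatty acids into mitochondria. None of the 9 genes of the carnitine shuttle reached 2-fold, and their median was 0.034, which became -0.073 with totals set equal outside Rn45s. Cpt1a, the gate-keeping acyltransferase of the outer membrane, had 342, 325, 366, 326 and 323, a difference of 0.0052. Cpt2, its partner on the inner membrane, stood at 39.7 against 25.2, a difference of 0.63, and Slc25a20, the carrier between them, differed by 0.59. A difference between this list and the matrix enzymes was not tested. Of 16 genes of uptake, binding and activation, 4 were higher and 0 lower, with a median of 0.56. They were Cd36, a fatty acid translocase of the plasma membrane, at 6.15 against 1.29, Fabp1 at 1114 against 484, Slc27a5, the bile acid and very-long-chain acyl-CoA synthetase, at 416 against 194, and Dbi, the acyl-CoA binding protein, at 100.2 against 34.9. Cd36 is a low gene and fell under 2-fold in at least 1 alternative. Fabp1 is among the most abundant genes of the list, and its 5 values were 447, 484, 1419.5, 1114 and 964. Acsl1, the main acyl-CoA synthetase of liver, was on the other side with 1526, 1542, 1166, 995 and 996, a fold of 0.645 (0.624 to 0.668). Of 9 thioesterases only Baat, which also conjugates bile acids, was past 2-fold, at 151 against 72.6. Acot1, a cytosolic thioesterase and a known PPARα target, stood at 16.9 against 15.7.

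Ketone body synthesis gave 1 of 6 genes higher, the monocarboxylate transporter gene Slc16a7 at 17.7 against 4.74, with a median of 0.72. Other known PPARα targets were split. Of 19, 2 were higher and 3 lower, and their median of 0.094 became -0.014 with totals set equal outside Rn45s. Vnn1, a pantetheinase, was higher at 12.6 against 3.23. Retsat, retinol saturase, had 51.5, 52.4, 588, 433 and 507, a fold of 8.27 (7.25 to 9.47), and only Rassf4, Cwc22 and Ehhadh differed more among the higher genes whose mean over both libraries reached 100, provisional names aside. On the lower side were Pdk4, the kinase that closes pyruvate dehydrogenase, at 4.89 against 10.99, Fgf21, a fasting hormone, at 4.57 against 12.1, and G0s2, an inhibitor of adipose triglyceride lipase, at 3.94 against 9.49. These 3, like Vnn1, are low genes, and Fgf21 fell under 2-fold in at least 1 alternative. Angptl4, an inhibitor of lipoprotein lipase, was at 138 against 124, and Plin2, a lipid droplet coat protein, at 83.7 against 71.4. Known targets outside β- and ω-oxidation stood on both sides of 0 in this pair of libraries.

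Among the receptors and their partners, Ppara, the gene of PPARα, was the receptor gene past 2-fold. It had 284, 289, 609, 658 and 656, a fold of 2.27 (2.14 to 2.42), and Ppargc1b, a coactivator of mitochondrial genes, stood at 54.4 against 20.3. Lpin1, a phosphatidate phosphatase that also acts as a coactivator of PPARα, was lower at 754 against 2203. The list of 16 receptors and partners counted 2 higher and 1 lower. Its median of -0.19 turned to 0.015 with column totals set equal. Rxra, the usual partner receptor, stood at 413 against 437, and Rxrb and Ppard differed by -0.46 and -0.64.

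**Figure D3:**
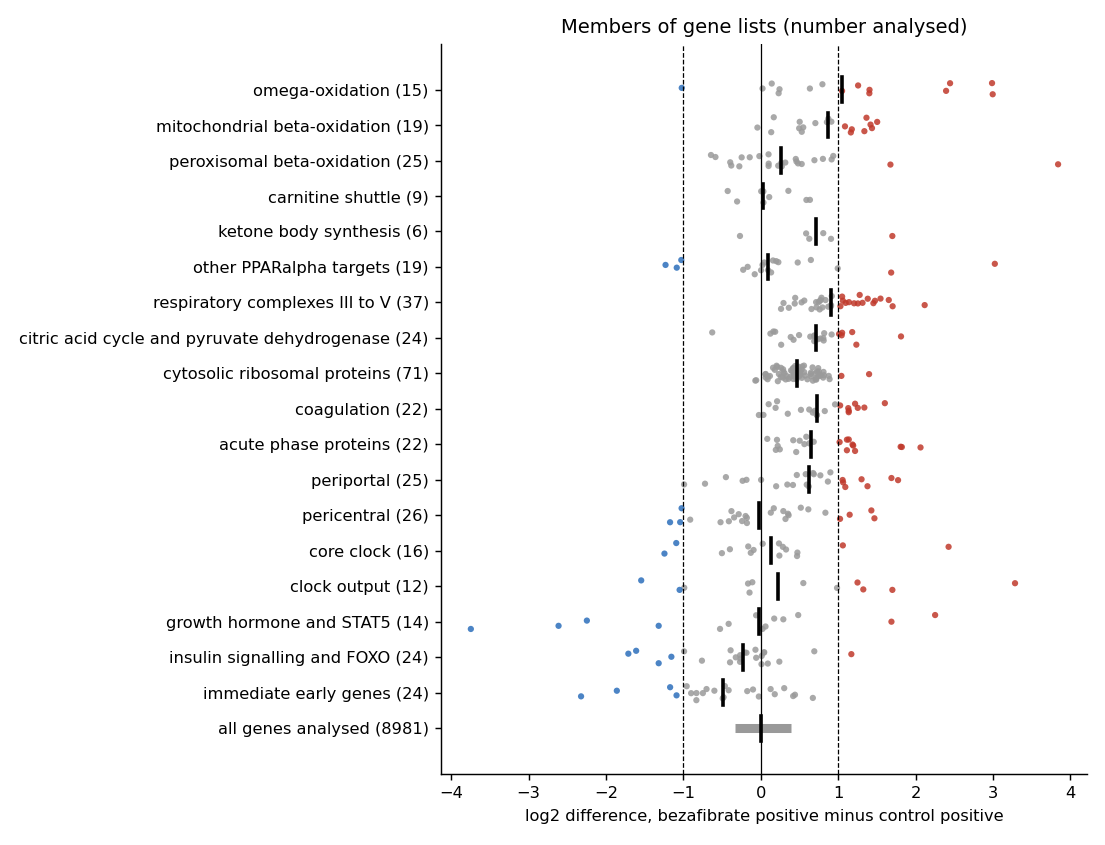
Log2 difference of each analysed member (points, horizontal axis, log2(value + 1)) and the list median (bar) for the gene lists described, with a line at 0 and lines at 2-fold. Members of ω-oxidation and mitochondrial β-oxidation lie mostly to the right of 0, whereas those of the carnitine shuttle gather around 0, with a median whose sign changes with scaling.

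Fatty acid synthesis was mixed. Of 26 genes, 3 were higher (11.5%, against 4.97% of all genes) and 2 lower, with a median of 0.23. Scd1, the stearoyl-CoA desaturase and the most abundant, had 1624, 1969, 6374, 4677 and 4879.8, a fold of 2.37 (2.32 to 2.43). Pnpla3, a lipid droplet hydrolase, was at 38.5 against 13.4, and Elovl2, an elongase of polyunsaturated chains, at 347 against 166. Elovl3, another elongase, was lower at 3.94 against 13.2. In cholesterol synthesis 0 of 25 genes were higher and 2 lower, namely Sqle, squalene epoxidase, at 9.61 against 34.1 and Mvd, mevalonate diphosphate decarboxylase, at 3.78 against 8.84. The median of 0.018 changed sign with scaling, to -0.092 with totals equal outside Rn45s. Among 20 genes of lipoproteins, Pltp, the phospholipid transfer protein, was lower at 5.83 against 20.7, and Scarb1, the receptor for high-density lipoprotein, higher at 209 against 101. Apob, the structural protein of very-low-density lipoprotein, took 0.581% (0.573 to 0.589) and 0.982% (0.973 to 0.991) of reads outside Rn45s in control positive and bezafibrate positive.

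Bile acid genes counted 5 of 21 higher and 0 lower, with a median of 0.52. Akr1d1, the steroid 5β-reductase of the pathway, had 20.5, 21.6, 114, 83.2 and 82.3, a difference of 1.90. Slc10a1, the sodium-dependent bile acid importer, stood at 403 against 142. Cyp7a1, the rate-limiting enzyme of bile acid synthesis, was at 62.6 against 40.5, a difference of 0.61. Akr1d1 and Slc10a1 thus differed more than the gene of the rate-limiting step.

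Genes of the respiratory chain were higher as a group. In complex I, 9 of 37 subunit genes passed 2-fold on the higher side and 0 on the lower, with a median of 0.82. In complexes III to V the counts were 16 and 0 of 37, with a median of 0.91. The extremes were Ndufa4, a subunit of the chain, at 53.4 against 9.92 and Uqcrb, of complex III, at 20.2 against 3.88. In the citric acid cycle and pyruvate dehydrogenase 6 of 24 were higher and 0 lower, with a median of 0.71. Other gene groups stood on the same side. Their longest annotated transcripts had a median of 1106 bases in cytosolic ribosomal proteins, 1819 in proteasome subunits and 2770 in reference genes. Of 71 cytosolic ribosomal protein genes 69 were above 0, with a median of 0.47, although only 2 reached 2-fold. Proteasome subunits counted 3 of 33 higher (9.09%, against 4.97% of all genes) and had a median of 0.55. Even the 12 reference genes, often taken as steady, counted 4 higher and had a median of 0.61. Their differences were 1.44 for B2m, 1.14 for Hprt, 1.08 for Ppia, 1.05 for Sdha, 0.80 for Gapdh, 0.72 for Eef1a1, 0.50 for Rplp0, 0.50 for Ywhaz, 0.35 for Actb, -0.0083 for Tbp, -0.16 for Gusb and -0.36 for Polr2a. Set beside these genes, the median of mitochondrial β-oxidation was 0.87, and the gap was not tested.

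Many secreted liver proteins were higher. Alb, albumin, took 3.24% (3.22 to 3.26) and 6.26% (6.24 to 6.28) of reads outside Rn45s in control positive and bezafibrate positive, the largest gain of share of any gene in this pair. The other hepatocyte markers differed by 0.87 for Apob, 0.87 for Ass1, 0.78 for Serpina1a, 0.36 for Cyp2e1, 0.31 for Ttr, 0.0041 for Cps1, -0.012 for Apoa1, -0.21 for Tat and -0.55 for Hnf4a. Acute phase proteins counted 10 of 22 higher and 0 lower, with a median of 0.65. Coagulation factors counted 8 of 22 higher and 0 lower, with a median of 0.72. Complement genes counted 3 higher (13.6%, against 4.97% of all genes) and 1 lower of 22. The lower one was C6, of the membrane attack complex, at 12.9 against 34.1. Among 22 iron genes 5 were higher, led by hepcidin, the hormone that limits iron uptake. Hp and Cp are among the 5 and are also counted with the acute phase proteins. Hamp had 81.3, 71.4, 454, 345 and 267, a fold of 4.83 (4.30 to 5.44), and its copy Hamp2 had 17.9, 18.97, 141, 100.1 and 86.1. The 2 copies are similar in sequence, so reads could be split between them. Of the targets of bone morphogenetic protein signalling in the list, Id1 stood at 9.77 against 3.66, while Id3, Id2, Atoh8 and Smad7 differed by 0.55, 0.43, -0.19 and -0.38.

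The zonation lists had different medians. Periportal hepatocytes, near the incoming blood, hold the urea cycle and gluconeogenesis, and pericentral ones hold glutamine synthesis and much of drug metabolism. Of 25 periportal genes 7 were higher and 0 lower, with a median of 0.62. Of 26 pericentral genes 4 were higher and 3 lower, and their median of -0.025 turned to 0.13 with a minimum mean of 20, 0.18 with column totals set equal and 0.31 with the control negative library in place of the control positive one. Glul, glutamine synthetase and the defining pericentral enzyme, had 97.3, 132, 109.8, 111 and 103, a difference of -0.24. Cyp2e1, an abundant pericentral P450, stood at 1293 against 1007. Otc, the ornithine transcarbamylase of the urea cycle, had 40.2, 39.02, 236, 175 and 186, a fold of 4.50 (3.84 to 5.29). Cps1, the first enzyme of that cycle, was at 5562 against 5547. In glucose handling 4 of 28 genes were higher and 0 lower. Ugp2, which makes the glucose donor of glycogen, stood at 74.7 against 24.8. G6pc, the last enzyme of gluconeogenesis, was at 1034 against 2057, a difference of -0.99.

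Circadian genes stood on both sides. In the clock of liver cells, the activators encoded by Arntl, Clock and Npas2 drive their own repressors and the output factors Dbp, Tef and Hlf. Dbp had 6.98, 6.25, 63.1, 69.7 and 70.1, a fold of 11.1 (7.65 to 16.8). Ciart, a repressor of the loop, had 6.78, 6.90, 37.7, 41.5 and 34.5, and Per3, another, stood at 52.3 against 24.6. The output factors Tef, at 177 against 73.7, and Hlf, at 55.5 against 16.4, were also higher. Of the activators, Clock differed by -0.093. Arntl had 19.7, 22.6, 12.5, 10.1 and 10.4, a difference of -1.09, and Npas2 stood at 3.15 against 8.84, a difference of -1.24. Other repressors stayed under 2-fold, with Per2 at 0.24, Nr1d1 at 0.23, Per1 at -0.13 and Cry1 at -0.40. By list, the core clock counted 2 higher and 2 lower of 16, with a median of 0.13, and clock output 4 and 2 of 12, with a median of 0.22 that turned to -0.13 with a minimum mean of 20. Clock genes vary with the hour of the day, and the hour of sampling cannot be told apart from treatment here. All 10 of these called genes had a RefSeq promoter. The E-box CACGTG, bound by the activators, was searched with no mismatch on both strands and stood in 2 of the 10, Ciart and Tef. It stood in 6.02% of all promoters, or 6.86% of genes. The D-box TTATGTAA, bound by Dbp and its relatives, stood in 1 of the 10, Per3, and in 0.819% of all promoters, or 0.977% of genes. The stretches of Ciart and Per3, chosen after their values were seen, are shown with the boxes in capitals because each holds more than 1.
Ciart, chr3:95882252-95882394, minus strand: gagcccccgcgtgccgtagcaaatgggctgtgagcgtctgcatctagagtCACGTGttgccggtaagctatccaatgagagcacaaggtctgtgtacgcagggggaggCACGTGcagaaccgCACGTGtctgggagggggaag
Per3, chr4:151044766-151044915, minus strand: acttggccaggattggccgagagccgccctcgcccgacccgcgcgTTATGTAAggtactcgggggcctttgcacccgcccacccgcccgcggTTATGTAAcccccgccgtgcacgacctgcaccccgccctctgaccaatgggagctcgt
Ciart holds 3 E-boxes and Per3 holds 2 D-boxes in these stretches.

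Growth hormone signals through STAT5, which raises Cish and Socs2 within hours and sets the sex-biased genes of mouse liver. Both fast targets were lower. Socs2 had 185, 191, 38.5, 39.4 and 37.2, a fold of 0.207 (0.179 to 0.238), and Cish had 33.3, 30.2, 5.07, 4.10 and 4.93, a fold of 0.136 (0.0857 to 0.207). Bcl6, a repressor that opposes STAT5 at many sites, was higher with 33.1, 27.6, 125, 135 and 111, a fold of 4.90 (4.07 to 5.95). Onecut1, a hepatocyte transcription factor under growth hormone control (chromosome 9, 74861921 to 74891781), had 402, 385, 37.3, 27.7 and 28.4, a fold of 0.0721 (0.0614 to 0.0843). Its nearest analysed neighbours were Gm16551, at 14.8 against 52.2, and on the other side Fam214a, at 253 against 168. Igf1, the main hormone target of STAT5, was at 797 against 831. Of the 14 genes 2 were higher and 4 lower, with a median of -0.019 that turned to 0.19 with column totals set equal.

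Sex-biased genes differed in the same pair of libraries, in lists added after the values were seen. Of 9 female-biased genes 4 were lower and 0 higher, with a median of -0.81. Cyp2b13, a P450 of female liver, had 30.6, 31.5, 4.13, 2.99 and 3.997. Of 19 male-biased genes 8 were higher and 3 lower, with a median of 0.95. Xist stayed between 4.5 and 8.5 and Y-linked genes were present in all 5 libraries. Major urinary proteins, pheromone carriers made in liver, counted 7 higher and 1 lower of 12, with a median of 1.29. Mup10 had 344, 385, 2803, 2531 and 2659.8 and Mup9 90.1, 119.6, 883, 731 and 738, whereas Mup2 stood at 894 against 2440.1. The Mup genes are near-identical copies and their reads could be split by the counting. Summed over the family they came to 5598 in control positive and 10048 in bezafibrate positive.

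**Figure D4:**
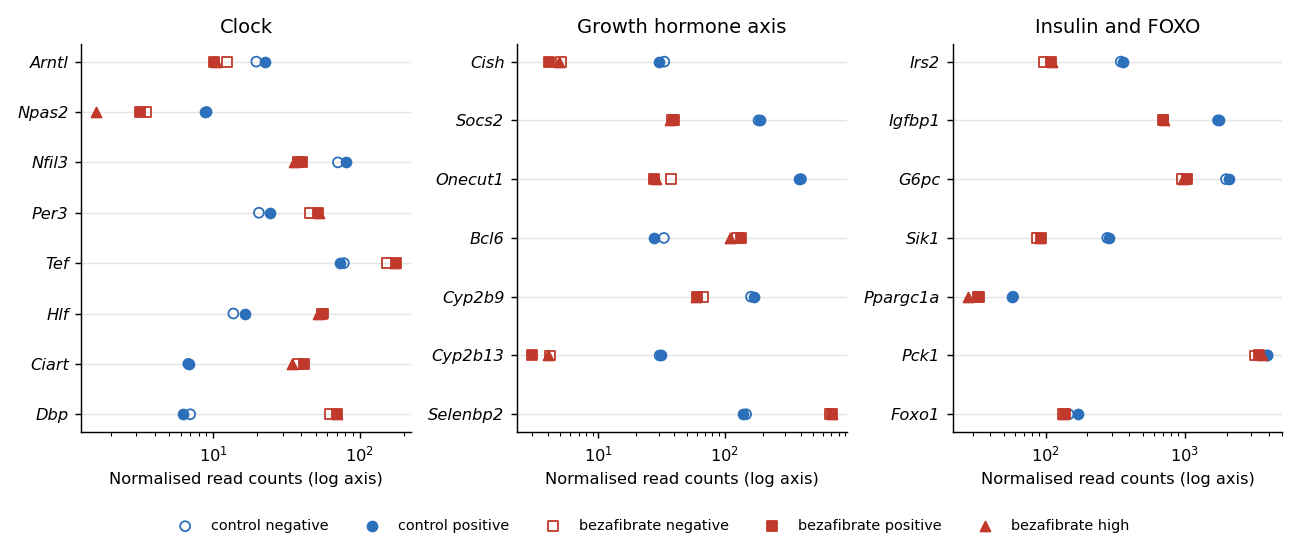
Normalised read count in each of the 5 libraries (horizontal axis, log scale, with genes down the side; 1 point per library, no error bars) of clock, growth hormone and insulin genes. Dbp and Bcl6 stand higher in bezafibrate positive than in control positive, and Socs2, Cish and Irs2 stand lower.

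Insulin and immediate early genes had medians below 0. Of 24 genes of insulin signalling and its FOXO targets 1 was higher and 4 were lower, with a median of -0.24. Irs2, an insulin receptor substrate that FOXO factors raise in fasting, had 347, 359, 97.8, 109 and 111, a fold of 0.304 (0.277 to 0.332). Irs1 stood at 46.5 against 105, Igfbp1, a secreted binding protein of the fasted state, at 701 against 1750.04, and Sik1, a kinase induced by cyclic AMP, at 92.7 against 285. Of 24 immediate early genes, which answer within minutes to growth factors and stress, 0 were higher and 4 lower, with a median of -0.49. Myc had 151, 163, 25.99, 31.8 and 28.2, a fold of 0.195 (0.166 to 0.228), and Nr4a1 stood at 6.46 against 26.1. Fos was at 152 against 214 and Jun at 751 against 1403. Plk3, a stress-linked polo-like kinase, was among the 10 lowest genes with a mean of at least 100 and had 989.6, 1011, 174, 235 and 214.

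Drug and redox genes went both ways. Of 30 genes of the xenobiotic receptors CAR and PXR and their P450s, 6 were higher and 4 lower, with a median of 0.44. Carboxylesterases and Aadac, which cleave esters of drugs and lipids, counted 4 and 0 of 13, and Aadac itself stood at 82.6 against 19.2. NRF2 targets and antioxidant enzymes counted 3 and 3 of 20. Hmox1, the heme oxygenase, had 175, 203, 33.1, 34.2 and 39.6, a fold of 0.169 (0.145 to 0.196). Srxn1, a sulfiredoxin, was also lower at 64.3 against 155, whereas Prdx1, a peroxiredoxin, was higher at 153 against 45.3. Aox1, an aldehyde oxidase, was lower at 96.8 against 311. Hsd17b11, a dehydrogenase of lipid droplets, had 22.4, 29.7, 216, 185 and 185, a fold of 6.21 (5.21 to 7.47), and Selenbp2, a selenium-binding protein, had 148, 140.1, 683, 702 and 703.

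Several of the genes with the highest and lowest differences belong to no list above. Rassf4, a Ras association protein (chromosome 6, 116633008 to 116673952), had 0.821, 1.08, 228, 309.7 and 275, a fold of 287 (123 to 886). Its neighbours Zfp422 and Cxcl12 differed by 0.48 and 0.15. Cwc22, a splicing factor that loads the exon junction complex (chromosome 2, 77881159 to 77946375), had 17.9, 14.9, 267, 362 and 340.4, a fold of 24.3 (19.1 to 31.4), with neighbours Zfp385b at 0.44 and Ube2e3 at -0.26. All 3 bezafibrate libraries stood above both control libraries in both genes. That order held in 35.7% of all genes but in 438 of the 446 higher genes, which were picked on a pair of these libraries. Rassf4 reached the minimum mean of 5 only through the bezafibrate libraries. None of these neighbours, the nearest analysed genes on each side, reached 2-fold. Cxcl12 starts only at 117168535 and Ube2e3 at 78868124, so genes under the minimum mean can lie between. A regional cause was not tested. Ildr2, an immunoglobulin-like membrane protein, had 3.70, 1.29, 25.2, 22.2 and 19.1. Amd1, the adenosylmethionine decarboxylase of polyamine synthesis, had 0, 0, 0, 43.7 and 0, and its near-identical copy Amd2 had 34.1, 43.98, 40.1, 0.473 and 42.1. The sum of both was 43.98 in control positive and 44.1 in bezafibrate positive, so their single values are uncertain where reads were split. Mup15, at 106 against 5.82, carries the same doubt. On the lower side, Mbd1, a methyl-CpG binding protein, had 222, 204, 29.5, 36.1 and 36.1, and Tchh, trichohyalin, had 13.96, 10.99, 0.267, 0.946 and 1.07.

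Some matrix genes were lower. In a list of collagens and basement membrane genes added after the values were seen, 4 of 14 were lower and 0 higher, and the median of -0.16 turned to 0.031 with column totals set equal. Col5a3, a fibrillar collagen chain, had 207, 184, 15.5, 27.4 and 25.7, a fold of 0.149 (0.126 to 0.175). Others of the list stood near 0 or higher, such as Col4a1 at -0.045, Col4a2 at -0.016 and Nid1 at 0.96. Col27a1 had 326, 305, 51.2, 75.3 and 66.8, and Nid2, a nidogen of basement membranes, had 28.9, 31.7, 4.93, 3.31 and 3.86. The summed stellate cell markers were lower in the same library, mostly through Reln, and in bulk libraries fewer cells of a type and less RNA per cell cannot be told apart; their part in the matrix values was not tested.

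The negative gate gave a second bezafibrate and control pair that shares no library with the positive gate, although the livers may be the same. There 923 genes (10.3%) were at least 2-fold higher with bezafibrate and 526 (5.86%) lower, with a median over all genes of 0.025. At least 2-fold higher in both gates were 358 genes, 80.3% of those of the positive gate and 38.8% of those of the negative gate. At least 2-fold lower in both were 191, 73.2% and 36.3%. Of the genes past 2-fold in the positive gate, 4 of the higher and 4 of the lower had the opposite sign in the negative gate. The 446 higher genes had a median of 1.25 in the positive and 1.49 in the negative gate, and 284 of them differed less in the positive gate. The 261 lower genes had -1.20 and -1.29, and 129 of them differed less. Because these genes were picked in the positive gate, that choice bears on the signs and the sizes. The shares of all genes with opposite signs or with a smaller difference were not counted. The difference between gates was not tested.

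**Figure D5:**
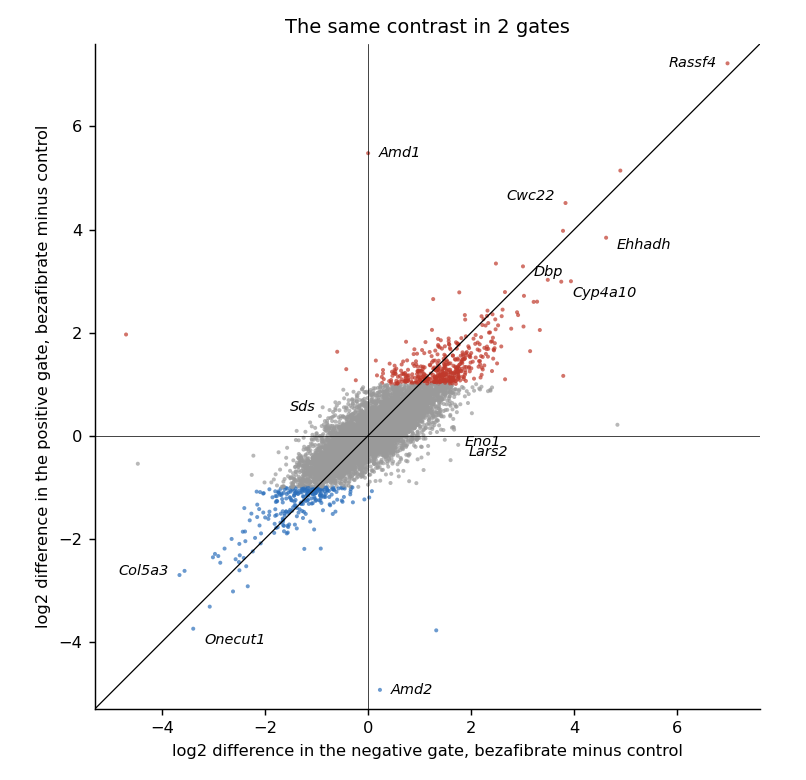
Log2 difference between bezafibrate and control in the negative gate (horizontal axis) against the same difference in the positive gate (vertical axis), 1 point per gene, log2(value + 1). Ehhadh lies at 4.62 and 3.84, and Amd2 stands apart at 0.23 in the negative and -4.93 in the positive gate.

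Both gates gave the leading fatty acid genes the same direction. Ehhadh differed by 3.84 in the positive and 4.62 in the negative gate, and Cyp4a10 by 2.99 and 3.75. The median of ω-oxidation was 1.05 and 1.59, and that of mitochondrial β-oxidation 0.87 and 1.31, with 17 of 19 members smaller in the positive gate. Respiratory complexes III to V had 0.91 and 1.24, and the reference genes 0.61 and 1.25, so the median of the reference genes was smaller in the positive gate as well. Rn45s held 36.3% of reads in control negative and 10.5% in bezafibrate negative, a wider gap than in the positive pair, and its part in these values was not tested. Pericentral genes had -0.025 in the positive and 0.48 in the negative gate, and periportal genes had 0.62 and 0.59. Smaller in the positive gate were 23 of 26 pericentral and 13 of 25 periportal genes. So were 11 of 12 reference, 20 of 22 coagulation and 2 of 24 immediate early genes. Over all genes the positive minus the negative gate difference had a median of -0.026, and the share that was smaller was not counted. Rassf4 differed by 7.22 and 6.97, Cwc22 by 4.51 and 3.83, and Onecut1 by -3.75 and -3.39. Dbp differed by 3.28 and 3.005, and Socs2 by -2.25 and -2.24. With the bezafibrate high library in place of the positive one, 529 genes passed 2-fold above control positive and 293 below it, and the control library is the same in both comparisons.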

How the data were processed

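RNA was measured in 5 libraries of sorted mouse hepatocytes. Total RNA was extracted with a kit made for fixed tissue, depleted of ribosomal RNA and turned into directional libraries read as pairs, per the labels' protocols. The authors deposited a table of normalised signal with 13966 gene symbols. The tools named are edgeR, RSEM, Bowtie2 and Trimmomatic 0.36 with build mm10, per the submitters' processing notes. Their roles, the annotation and the normalization were not given in the sources read. Dividing each column by its smallest step gave whole reads for 100% of values (tolerance 0.001 reads), so the deposited signal is a read count over a single factor for each library.

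Differences of log2(value + 1) were taken between bezafibrate positive and control positive for genes with a mean of at least 5 over the 5 libraries. Folds are plain ratios, and their exact 95% intervals (Clopper-Pearson) were computed on recovered reads. The intervals hold for counting error alone, since reads lack molecular identifiers and may stem from the same molecule. With a single library in each group, the pair itself was not tested. Named genes were the 10 highest and 10 lowest differences, the same among genes with a mean over both positive libraries of at least 100 (provisional names, pseudogenes and small or ribosomal RNA left out of both), in each list the 2 most abundant members and those with the highest and lowest difference, and all reference genes and hepatocyte markers. A few genes chosen in this way are not reported here. Other genes named, and 4 of the 57 lists, were chosen after their values were seen. The members and lists as a whole were chosen with earlier results of these data known.

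As alternatives the pseudocount, the filter, 5 scalings and, in an addition made after seeing the data, the library on each side were varied. On the recovered read counts, edgeR 4.0.16 in R 4.3.3 fitted gate and treatment over 4 libraries (quasi-likelihood test, Benjamini-Hochberg adjustment at 0.05). With 1 residual degree of freedom, the fit uses the difference between gates in the response to treatment as its error, so it is no test between replicates. It called 2166 genes higher and 1944 lower of 8981, with 442 of the 446 and 258 of the 261 genes past 2-fold among them. The steps were tested on simulated data. Python 3.11.15, pandas 2.3.3 and scipy 1.17.1 were used. GENCODE for GRCm38 gave coordinates and transcript lengths for 95.8% of symbols, and RefSeq (GRCm38.p6) gave promoters.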

Additional observations from a re-analysis of the deposited data

Results flagged for a closer look

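The results below stood out because the same contrast gave opposite signs in the positive and negative gates. None of these differences between gates was tested. The median difference of the 26 pericentral genes was -0.025 in the positive and 0.48 in the negative gate, and the first is above 0 with a minimum mean of 20, with column totals set equal or against control negative. The median of the 16 core clock genes was 0.13 and -0.082. Amd2 differed by -4.93 in the positive and 0.23 in the negative gate. Its near-identical copy Amd1 was at 0 in all libraries but bezafibrate positive, where it had 43.7, and the sum of both copies was 43.98 and 44.1 in the control positive and bezafibrate positive libraries.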

How the results depend on the processing

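Of 93 named genes past 2-fold, 71 stayed past it in every alternative run, and 34 of 47 list medians kept their sign. Higher genes that did not stay past it were Acaa2, Alb, Amd1, Baat, Ccnb1, Cd36, Ces1c, Hprt, Mup1, Ppargc1b, Ppia, Scarb1, Sdha and Sox9. Lower ones were Amd2, C6, Cdkn1a, Cyp4f17, Ddit3, Fgf21, Npas2 and Slc13a3. The main counts were 446 higher and 261 lower. A pseudocount of 5 gave 273 and 138, and a minimum mean of 20 gave 273 and 132. With no minimum 421 were lower and 665 higher. Equal column totals gave 815 and 134, and equal totals without Rn45s 339 and 366. The edgeR fit of gate and treatment gave 2166 and 1944 calls at an adjusted p of 0.05, which is another quantity than a 2-fold count. The median over all genes became 0.20 with equal column totals, -0.10 with equal totals without Rn45s, -0.018 without the 100 highest genes, -0.011 with the median of ratios and -0.014 with the upper quartile. The cause of these shifts was not tested. With equal column totals the medians of PPAR receptors and partners and of collagens and basement membrane turned to 0.015 and 0.031. Sox9, a biliary transcription factor, turned to -0.069 with control negative in place of control positive. With bezafibrate high in place of bezafibrate positive the counts were 529 and 293, and with control negative in place of control positive 503 and 263. Of 2357 values of named genes under the alternatives, 1981 lay within the counting interval of the gene's plain fold in the main run. The values carry the pseudocount and that interval does not. With no minimum mean, which leaves gene values unchanged, 2 genes therefore lay outside it. Depth limits low genes most. The fold interval lay wholly past 2-fold for 198 of the 446 and 107 of the 261. Those counts depend also on how near each fold lies to 2, and they were not split by abundance. No paired analysis was possible because each group has 1 library and the labels carry no replicate numbers to pair by. The edgeR fit compares treatment within gates, but the gate is a condition and not a replicate.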

Other observations

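The groups that follow were not described in full above, and most held few genes past 2-fold. Nuclear and long noncoding RNAs counted 0 higher and 0 lower of 6, with a median of -0.21. Neat1, the scaffold RNA of paraspeckles, took 2.81% (2.79 to 2.83) and 1.999% (1.99 to 2.01) of reads outside Rn45s in control positive and bezafibrate positive, and Malat1, an RNA of nuclear speckles, 3.21% (3.19 to 3.23) and 2.49% (2.47 to 2.50). Genes of the endoplasmic reticulum and integrated stress responses counted 2 higher and 1 lower of 24, and their median of 0.057 turned to -0.056 with totals set equal outside Rn45s. Trib3, a pseudokinase induced by ATF4, stood at 36.1 against 11.4, and Ddit3, a transcription factor of the same response, at 7.57 against 19.4. Dnajb9, the other higher gene, differed by 1.26. Besides Onecut1, the 20 hepatocyte transcription factors held Nr1i3, which encodes the xenobiotic receptor CAR, at 91.3 against 186. In the tryptophan to NAD pathway 1 of 12 genes was past 2-fold, Tdo2, the dioxygenase of the first step, at 608 against 276. Of 18 retinoid genes 2 were higher, Retsat and Aldh1a1, a retinaldehyde dehydrogenase at 391.82 against 141. Ccnb1, a mitotic cyclin, stood at 8.51 against 3.23, and Cdkn1a, the cyclin-dependent kinase inhibitor, at 30.9 against 65.97.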
